A study of Homo sapiens with 12 samples.

Results

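The sites described here are the accessible sites of highest local enrichment that lie at the end of 1 protein-coding gene and no other, in a peak list pooled over a whole ATAC-seq series. ATAC-seq uses a transposase to cut and tag open chromatin, so that regulatory DNA in use collects more sequenced fragments than closed DNA. Members were chosen by 4 conditions: an autosomal interval of at most 10000 bp, an enrichment at the summit of at least 17, a summit within 1000 bp of an end of a protein-coding gene, and no other protein-coding gene end within that distance. The rule found 629 summits of 188019 in the list, at 629 different genes, so no gene had more than 1. Summits of any enrichment that met the positional conditions numbered 12076, at 9666 genes, and members were 5.21% of those summits and 6.51% of those genes. They were 3.29% of the 19126 autosomal protein-coding genes. These percentages follow from the threshold itself and are the background against which every gene list below was read.

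The cells were HT1080, an established human fibrosarcoma line, embedded as single cells in rat tail type-I collagen. The 3 groups differed in collagen concentration: high was 1.7 mg/mL, medium was 1.0 mg/mL and low was 0.3 mg/mL, with 4 libraries each and 12 in all. Cells were released from the gel with collagenase and frozen before the assay. All 12 libraries also received the matrix metalloproteinase inhibitor GM6001 at 20 µM, and the design text gives 48 h of migration, so no group had uninhibited proteases. The list has no column for a library or a group, and each member therefore has 1 pooled value, with no replicate error, no comparison between collagen concentrations and no depth per library.

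A mammalian promoter is the stretch just upstream of a transcription start, where sequence-specific factors, the general transcription factors and RNA polymerase II keep nucleosomes away. Most promoters of broadly expressed genes lie in CpG islands and carry no TATA box; instead they hold short elements such as the GC box, bound by SP and KLF factors, and the CCAAT box, bound by the trimeric factor NF-Y, whose histone-fold subunits can bind next to nucleosomes. Other elements common in such promoters are the ETS site, the palindromic site of NRF1, the cAMP response element (CRE), the YY1 site, and the CGCG-centred palindrome recognised by BANP and ZBTB33.

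For 7 members the 250 bases before the RefSeq start are printed, to show what the sequence under such a summit looks like. One is the member of highest enrichment, 5 were taken as the highest remaining member that holds a given motif there, and SLC30A5 is, after SPATC1L, the highest that holds none of the motifs searched as promoter elements. All 7 have their summit inside the run. Sequences are from RefSeq, build GRCh38.p14, written in the direction of the gene, and the last base lies next to the start. Capitals mark the GC box (GGGCGG or its complement), the CCAAT box (CCAAT, or ATTGG on the other strand), the ETS site (CCGGAAG), the NRF1 half-site (GCATGCG), the CRE (TGACGTCA) and the BANP and ZBTB33 core (CTCGCGAG). The positions are chr21:46184460-46184709 on the minus strand for SPATC1L, chr5:139198369-139198618 minus for SIL1, chr12:2004458-2004707 minus for DCP1B, chr7:124929826-124930075 minus for POT1, chr3:141738048-141738297 plus for RNF7, chr17:15699502-15699751 plus for ZNF286A and chr5:69093764-69094013 plus for SLC30A5.
SPATC1L: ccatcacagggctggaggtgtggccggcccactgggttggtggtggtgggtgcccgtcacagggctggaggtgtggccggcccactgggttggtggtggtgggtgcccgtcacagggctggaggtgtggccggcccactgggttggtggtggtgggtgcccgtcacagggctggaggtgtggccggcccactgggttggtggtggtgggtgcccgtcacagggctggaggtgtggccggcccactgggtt
SIL1: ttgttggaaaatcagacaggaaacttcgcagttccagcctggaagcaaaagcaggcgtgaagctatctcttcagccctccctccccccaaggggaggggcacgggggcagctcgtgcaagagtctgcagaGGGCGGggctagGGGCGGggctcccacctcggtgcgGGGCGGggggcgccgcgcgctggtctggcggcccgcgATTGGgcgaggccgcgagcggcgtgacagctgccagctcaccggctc
DCP1B: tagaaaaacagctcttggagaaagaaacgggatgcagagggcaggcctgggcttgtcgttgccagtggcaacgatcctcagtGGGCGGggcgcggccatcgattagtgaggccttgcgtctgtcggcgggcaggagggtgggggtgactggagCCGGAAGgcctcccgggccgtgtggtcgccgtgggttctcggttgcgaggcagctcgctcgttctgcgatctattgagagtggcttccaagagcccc
POT1: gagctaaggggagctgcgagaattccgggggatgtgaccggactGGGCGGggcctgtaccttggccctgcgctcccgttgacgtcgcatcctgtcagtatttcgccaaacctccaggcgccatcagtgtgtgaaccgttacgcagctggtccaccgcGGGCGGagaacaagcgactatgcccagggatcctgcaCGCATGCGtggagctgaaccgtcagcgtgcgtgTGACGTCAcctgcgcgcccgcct
RNF7: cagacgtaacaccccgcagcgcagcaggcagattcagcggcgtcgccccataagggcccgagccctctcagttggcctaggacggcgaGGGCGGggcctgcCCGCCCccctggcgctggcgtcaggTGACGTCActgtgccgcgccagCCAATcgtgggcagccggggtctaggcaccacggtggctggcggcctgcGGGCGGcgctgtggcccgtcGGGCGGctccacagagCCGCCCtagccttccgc
ZNF286A: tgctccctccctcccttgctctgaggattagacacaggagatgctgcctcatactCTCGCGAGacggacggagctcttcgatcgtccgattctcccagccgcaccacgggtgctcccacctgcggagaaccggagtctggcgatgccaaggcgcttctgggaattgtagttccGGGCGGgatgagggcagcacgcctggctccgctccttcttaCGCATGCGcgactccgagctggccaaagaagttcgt
SLC30A5: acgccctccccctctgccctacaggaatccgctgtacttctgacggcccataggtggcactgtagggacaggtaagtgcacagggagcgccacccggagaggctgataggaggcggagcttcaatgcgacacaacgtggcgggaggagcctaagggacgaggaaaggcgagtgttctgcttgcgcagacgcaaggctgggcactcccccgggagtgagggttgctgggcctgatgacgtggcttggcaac
In SIL1 the summit lay at base 208 of the printed run, inside the ATTGG that stands close to the start, and 3 GC boxes lie further upstream. In RNF7 the summit was at base 135, between the CRE and the CCAAT box, with 5 GC boxes in the run. POT1 and ZNF286A each hold half-sites that overlap on both strands (CGCATGCG), the centre of the NRF1 palindrome, and both summits, at bases 107 and 127, were away from it. SPATC1L has no such element but repeats a unit of 53 bases, and 86.2% of the bases of its 300-base window equalled the base 53 positions further on.

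The enrichment is the authors' ratio of the pileup at the summit to a local background, and it chose the members, so its values are given as a description. It ran from 17.0003 to 21.3 among the 629, with a median of 17.7 and quartiles of 17.3 and 18.2. Only 214 members (34.0%) reached 18, 41 (6.52%) reached 19, 8 (1.27%) reached 20 and 1 reached 21. The pileup, the number of overlapping fragments or reads at the summit, was recovered for each summit from its enrichment and p-value, and it ranged from 380 to 6110 with a median of 1747. The recovered background had a median of 96.1 at members and 49.3 at the 11447 weaker single-gene summits, whose median enrichment was 7.93 and median pileup 404. High enrichment thus went with high pileup only in part. Of the 629 genes of highest pileup, which reached down to 2371, 139 (22.1%) were members. Over all 9666 genes with a single-gene summit the share was 6.51%.

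**Figure D1:**
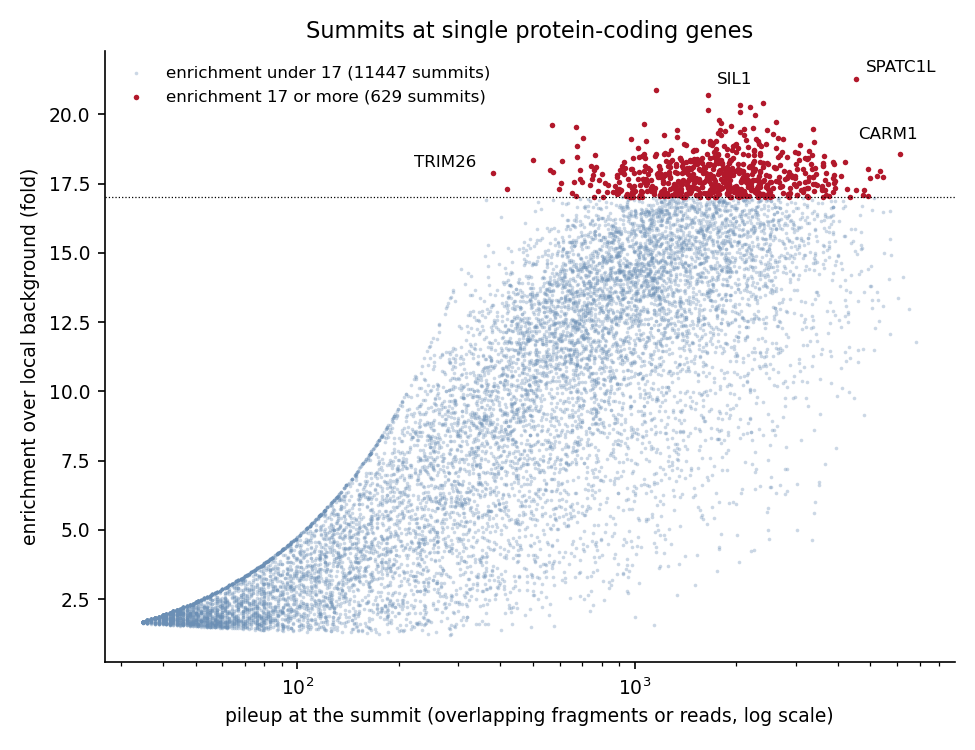
Enrichment (fold over local background, linear axis) against the recovered pileup (overlapping fragments or reads, log axis) for each summit at a single protein-coding gene; red points are the 629 summits at 17 or more, blue points the 11447 weaker ones, and the dotted line is the threshold. Members span pileups from 380 (TRIM26) to 6110 (CARM1), and many weaker summits have pileups in the same range.

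The highest value belonged to SPATC1L, which encodes a speriolin-like protein known from sperm (chr21:46184345-46185105, enrichment 21.3, pileup 4516, summit 141 bp upstream of the start). SIL1, the nucleotide exchange factor of the ER chaperone BiP, had 20.7 with a pileup of 1655. RCN2, a calcium-binding protein of the ER, had 20.4, and WDR47, a WD-repeat protein that acts on microtubules, had 20.3. MARCHF2, a membrane-bound ubiquitin ligase, had 20.3, OTUD6B, a deubiquitinase, had 20.1, and VIRMA, the scaffold of the complex that methylates adenosine in mRNA, had 20.1. FEM1C, a substrate receptor of a cullin ligase, and DCP1B, a cofactor of mRNA decapping, followed at 19.99 and 19.8. Among the next were ZNF337 (19.7), RALGAPA2 (19.7), ZNF280B (19.6), CENPC (19.6), MCCC2 (19.5), RNF7 (19.5), HIBADH (19.5), GOLGA5 (19.5) and INTS3 (19.4). These genes share no single pathway: they include chaperone, ubiquitin, RNA decay, kinetochore, Golgi and amino acid enzymes.

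Pileup ordered the members differently. CARM1, an arginine methyltransferase and coactivator, was highest at 6110 with an enrichment of 18.6, followed by KDM4B, a histone lysine demethylase, at 5448 and HIP1, a clathrin and actin adaptor, at 5326. The lowest were TRIM26 at 380, TJP1 at 418 and ABCF1 at 501. TRIM26 was the only member whose background equalled the lowest value in the list, 20.3; the other 628 (99.8%) had a raised background, against 90.0% of the weaker summits. At the threshold, TMEM65, METTL3 and SENP2 lay just inside (17.0033, 17.002 and 17.0003), and OGDH, TTK and DIP2A just outside (16.9989, 16.9978 and 16.9974). TTK is a mitotic checkpoint kinase and OGDH a citric acid cycle enzyme, so genes whose functions are also found among the members lie just outside.

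Members mostly stood alone. Their intervals measured 381 bp (SIK1) to 1437 bp (GINM1) with a median of 824 bp, near the 840 bp of weaker summits that led their own interval. The quartiles were 722 and 927 bp at members, and 637 and 1113 bp at the strongest summit of each weaker gene. In 623 (99.0%) the member was the only summit of its interval, and the 6 with a second, weaker summit included DNAJC21, PER3, FBXO34 and MIA3. All 629 members led their interval. Among weaker summits that led theirs, 83.4% were the only summit, and among all weaker summits, which include secondary ones, 69.9% were. Another interval lay within 5000 bp of the summit at only 3 members (0.477%, 95% Wilson interval 0.162 to 1.39), ARID3B and MSMO1 among them. Among 9596 weaker summits that led their own interval the share was 26.9% (26.0 to 27.8). Limiting both sets to pileups between 1292 and 2311, the middle of the member range, left 0.635% of 315 members and 17.4% (15.3 to 19.6) of 1239 weaker summits with such a neighbour. In that range the median background was 96.1 at members and 120 at weaker summits, and the median interval 828 and 1013 bp. The summit was the only one of its interval in 100% of these members and 87.6% of these weaker summits. At like pileup an enrichment of at least 17 asks for a lower background. The gap in background thus follows from the choice of members, and the shares and lengths are a description only. Whether signal from neighbouring sites entered the authors' background is not given in the sources used here, and the part of the background in this isolation was not tested.

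The cell type of the list was read against fixed markers. Of 10 mesenchymal markers 9 had a summit near an end, with strongest enrichments from 6.27 to 15.1 and THY1 the one without. Of 6 epithelial markers 3 had one (EPCAM, KRT8 and KRT18, 1.75 to 12.7), and of 4 haematopoietic markers 2 did (CD3E and SPI1, 8.44 to 14.5). None of the 20 was a member. Over all autosomal coding genes 50.5% had a single-gene summit and 3.29% were members. The epithelial and haematopoietic counts are close to the first share, and the lack of members among so few markers is near the second. A promoter can be open in a cell that does not express the gene, and the part of other cells in the list was not tested.

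The gene functions were read through 16 lists of housekeeping, signalling, matrix and lineage genes and 58 families defined by gene symbol. Of the 629 members, 157 were on a list and 161 in a family. Every list except the lineage-specific contrast list held members at more than the 3.29% of all coding genes. The intervals of chromatin modifiers, ribosome biogenesis, signalling genes and matrix genes cover that share. The contrast list of 72 genes, such as hormones, globins and neuronal or immune genes, held 0. Its interval (0 to 5.07%) covers 3.29% too, and 16 of its genes had a weaker single-gene summit. A lower share of contrast genes had any summit to choose from, so several shares, and all those in the plot of the lists, are also given among genes with a single-gene summit, where the background is 6.51%. Intervals on these shares are 95% Wilson intervals and cover counting error only.

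Centrosome and cilium genes held the highest share of any list, 18 of 123 (14.6%, interval 9.46 to 21.9), or 22.0% of those with a summit. Their median strongest enrichment was 14.3, against 10.8 over all coding genes with a single-gene summit. Among the highest were WDR19 (19.2), a subunit of the retrograde intraflagellar transport complex, CEP20 (19.1), a centriolar satellite protein, and BBS9 (18.3), a subunit of the BBSome that carries membrane cargo into cilia. Others, down to POC5 at 17.0034, included components of the transition zone at the base of the cilium (TMEM67, TCTN1), intraflagellar transport (IFT57), its motors (DYNC2H1, KIF3A) and centriole assembly (CEP152, CEP120, STIL). Members were thus spread over several parts of the organelle.

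Mitochondrial genes followed with 14 of 137 (10.2%, interval 6.19 to 16.4). ATP5PO, the stalk subunit of the ATP synthase also called OSCP, was at 19.2, SDHB, the iron-sulphur subunit of succinate dehydrogenase, at 18.7, TIMM17A of the inner membrane import channel at 18.4 and PHB1, a prohibitin, at 18.2. 5 of the 14 were subunits of the ATP synthase: ATP5PO, ATP5MJ, ATP5MC1, ATP5PD and ATP5F1B. Of 44 NDUF genes of complex I, 2 were members (4.55%, interval 1.26 to 15.1), or 10.0% of those with a single-gene summit. Of 77 mitochondrial ribosomal protein genes 3 were (3.90%, 1.33 to 10.8, led by MRPS9 at 18.9), or 7.32% of those with a summit. These intervals cover both the 3.29% of all coding genes and the 10.2% of the mitochondrial list. A single-gene summit was present at 45.5% of NDUF genes and 53.2% of mitochondrial ribosomal genes.

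Genes of mRNA decay, autophagy and the lysosome had 12 members of 128 (9.38%, interval 5.44 to 15.7). VIRMA (20.1) and METTL3 (17.002) belong to the complex that writes N6-methyladenosine, and YTHDC1 (17.9) reads that mark. DCP1B (19.8) and DCP1A (18.4) are the paired decapping cofactors, TNRC6C (19.4) links Argonaute to deadenylation and CNOT10 (17.8) is a deadenylase subunit. LAMTOR4 (18.4), LAMTOR3 (18.1) and RRAGC (17.9) anchor mTORC1 at the lysosome, and the kinase MTOR itself was a member at 18.7.

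Nuclear gene expression was covered from transcription to export. The RNA polymerase II and Mediator list had 11 of 127 (8.66%), led by INTS3 (19.4) and INTS4 (18.4) of the Integrator complex, CLP1 (18.6), a kinase of 3′-end and tRNA processing, and the general factor subunit GTF2E2 (17.8). Splicing had 10 of 115 (8.70%): SRSF4 (18.6), an SR protein, led, followed by U2AF1 (18.1), which recognises the 3′ splice site, BCAS2 (17.8) and RBM17 (17.8). Nuclear pore and transport had 7 of 86 (8.14%), with RANBP2 (17.97), NUP58 (17.7) and NUP42 (17.6) of the pore and IPO11 (17.9), an importin. Translation had 7 of 97 (7.22%), led by DENR (18.5), ABCF1 (18.4), EPRS1 (18.2) and EIF2B2 (17.7), and ribosome biogenesis 8 of 132 (6.06%), led by UTP6 (18.9), NOL11 (18.2), GNL2 (18.1) and NOL6 (18.03). Chromatin modifiers also had 8 of 132 (6.06%): CARM1 (18.6), the remodeller CHD6 (18.3), the demethylase KDM2A (17.9) and CHD8 (17.8) were the highest. The intervals of these 6 lists overlap one another, so their order is not resolved.

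DNA replication and repair had 14 members of 162 (8.64%, interval 5.22 to 13.98), or 14.7% of those with a summit. RPA2 (18.5), which coats single-stranded DNA, MCM3 (18.2) of the replicative helicase, GINS4 (18.1) of the same helicase and FANCI (17.8) of the crosslink repair pathway led, and MCM10, GINS2, BLM, FANCA, NBN and EXO1 were further members. The cell cycle list had 11 of 153 (7.19%), led by CENPC (19.6), the inner kinetochore protein, CCNB1 (19.02), the mitotic cyclin, NCAPG2 (18.2) of condensin II and KIF22 (18.03), a chromosome-arm kinesin. Both shugoshins, SGO1 and SGO2, which protect cohesin at centromeres, were members at 17.8 and 17.3. Ubiquitin and proteasome genes had 10 of 142 (7.04%), with RNF7 (19.5), the RING subunit of cullin-5 ligases, HERC2 (19.1), the proteasome ATPase PSMC4 (18.7) and the ligase UBE3C (18.1) at the top.

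Secretory pathway genes had 14 of 190 members (7.37%, interval 4.44 to 11.99). GOLGA5 (19.5) is a golgin tether, SRP9 (19.02) a subunit of the signal recognition particle, SNX3 (18.5) a retromer partner and SAR1A (18.2) the GTPase that starts COPII coats. Small GTPases of the same routes were frequent: 10 of 67 genes whose symbol is RAB followed by a digit (14.9%, interval 8.31 to 25.3) and 6 of 33 whose symbol is ARL or ARF followed by a digit (18.2%, 8.61 to 34.4). The first 4 of the RAB set were RAB8B (18.6), RAB1A (18.6), RAB5IF (18.1) and RAB3A (18.05), of which RAB5IF is an interacting factor and no GTPase itself. In the ARL set, ARL14EP and ARL2BP are partner proteins.

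Signalling genes had 9 of 164 members (5.49%, interval 2.91 to 10.1), or 6.72% of those with a summit, close to the background of 6.51%. MTOR (18.7), the merlin gene NF2 (18.5), STAT3 (18.3) and PRKAB1 (17.7), a subunit of AMP-activated kinase, were the highest. Matrix, adhesion and invasion genes, which bear on the collagen setting of the study, had 4 of 100 (4.00%, 1.57 to 9.84): P4HA1 (17.4), a collagen prolyl hydroxylase, ITGA10 (17.4), a collagen-binding integrin, MRTFA (17.3), the actin-regulated cofactor of SRF, and ROCK1 (17.1), a kinase of actomyosin contraction. The ITGA10 summit lay 17883 bp downstream of its start and 959 bp from a gene end and is the only one of the 4 far from its start. Among genes with a summit that is 5.26%, with a median strongest enrichment of 9.41, below the 10.8 over all coding genes. None of 42 collagen genes was a member, though 15 had a single-gene summit. That share allows up to 8.38%.

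**Figure D2:**
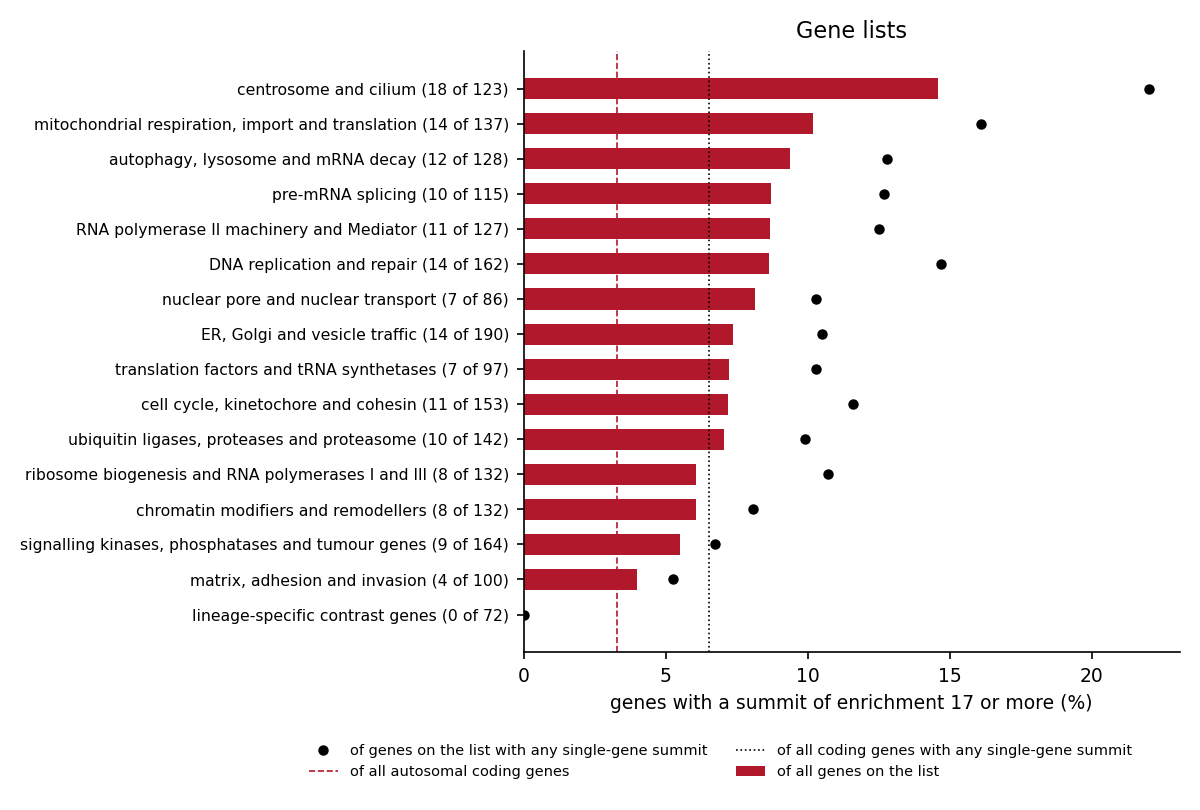
Percentage of genes with a member summit for each of the 16 lists: bars are over all autosomal genes of the list, black points over its genes with any single-gene summit, and the labels give members of genes. The dashed line (3.29%) and the dotted line (6.51%) are the same percentages over all coding genes; centrosome and cilium genes are highest at 14.6%, and lineage-specific genes are at 0.

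Among the symbol families, C2H2 zinc finger genes were the most numerous, with 25 members of 556 (interval 3.06 to 6.55%). The first 4 were ZNF337 (19.7), ZNF280B (19.6), ZNF286A (18.8) and ZNF585A (18.5), and pileups in the family ran from 571 to 2632. Among its genes with a summit, 25 of 329 were members, near the 6.51% of all coding genes. TMEM genes had 15 of 226 (6.64%), with TMEM218 (19.4), TMEM170B (18.5), TMEM67 (18.1) and TMEM222 (18.1) first. Solute carriers had 9 of 372 (2.42%), led by SLC25A3 (19.4), the mitochondrial phosphate carrier, and SLC30A5 (19.4), a zinc transporter of the secretory pathway. RNF and TRIM ligases had 7 of 160 (4.38%), kinesins whose symbol is KIF followed by a digit 4 of 38 (10.5%, KIF21A first at 18.99; KIFC1, at 17.5, falls outside that pattern), WD-repeat WDR genes 4 of 55 (7.27%), DEAD or DEAH box helicases 4 of 51 (7.84%) and DNAJ or HSP genes 4 of 76 (5.26%, DNAJC3 first at 19.1).

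The other families with at least 3 members held few each, and their intervals are wide. Phosphatase subunit (PPP) genes had 4 of 73, led by PPP4R3A (17.6), CCDC genes 5 of 128, led by CCDC110 (19.3), and zinc fingers of other types 5 of 106, led by ZFYVE1 (17.8). USP and OTU deubiquitinases had 3 of 82, with OTUD6B (20.1) first, cytosolic ribosomal proteins 3 of 76, with RPS9 (18.3) first, and genes with a cyclin, CDK or CDKN symbol 3 of 70, namely CDK11A, the phosphatase CDKN3 and CCNB1 (19.02), the highest. F-box genes had 3 of 63, led by FBXW7 (17.6), a tumour suppressor that marks cyclin E and MYC for degradation, methyltransferases of the METTL, TRMT and NSUN groups 3 of 56, led by METTL13 (17.8), and RBM genes 3 of 41, led by RBM42 (18.2). Nucleoporins with a NUP symbol had 3 of 22 (13.6%, interval 4.75 to 33.3). Genes that carry only an open reading frame, FAM or LOC name had 14 of 1030 (1.36%), led by FAM120A (18.4), whose summit was 114965 bp downstream of its start.

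Some families had no member, and for the 5 of them given first the interval includes the 3.29% of all coding genes. Histone genes had 0 of 87 (interval 0 to 4.23%), of which 37 had a single-gene summit. MAPK cascade genes had 0 of 52 (0 to 6.88%), ETS factors 0 of 29 (0 to 11.7%), genes with ATF, CREB or related symbols 0 of 45 (0 to 7.87%) and UBE2 conjugating enzymes 0 of 34 (0 to 10.2%). Protein families of restricted expression had fewer summits to begin with: keratins had 0 members of 149 with 31 single-gene summits, and chemokines and interleukins 0 of 120 with 36. Olfactory receptors had 1 member of 391, OR2L13 (17.7, pileup 689), whose summit also lies within 1000 bp of the pseudogene CLK3P2. Homeobox genes had 2 of 107, HOXC13 (17.05) among them. Gene length differed as well: the median gene span was 43314 bp for members and 29353 bp for genes whose strongest summit was weaker.

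Position at the start was measured for the 542 members with a RefSeq start in the tables used here (88.7% of the 611 off chromosome 8). The median summit lay 95.5 bp upstream, with quartiles at 144 and 45.0 bp upstream, and 475 (87.6%) were upstream. Within 100 bp of a start lay 269 (49.6%, interval 45.4 to 53.8) and within 200 bp 481 (88.7%). For the strongest summit of each weaker gene the median was 40.0 bp upstream, 63.5% were upstream and 66.5% were within 200 bp. The upstream shift followed enrichment class: the median was 35.0 bp upstream from 5 to 10, 46.0 from 10 to 14 and 74.0 from 14 to 17, while genes under 5 had a median 149 bp downstream, with fewer than 80% of genes in the lowest pair of classes having a start (77.6% and 79.9%). At the middle pileups named above the position was the same in both sets, 92.0 bp upstream for members and 93.0 bp for weaker summits, so at equal pileup no upstream shift of members was seen.

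**Figure D3:**
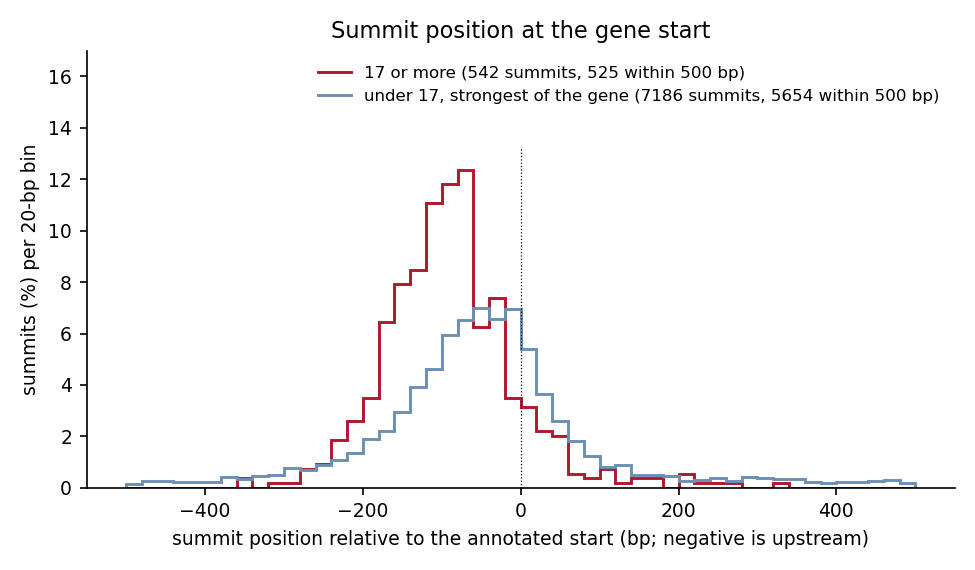
Distance from the annotated start (bp, negative is upstream) of the 542 member summits with a start (red) and of the strongest summit of 7186 genes below 17 (blue), as a percentage of each set per 20-bp bin. Member summits gather upstream with a median at 95.5 bp, and weaker ones are broader and nearer the start.

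Beside the 481 members within 200 bp of a start, 46 lay from 200 to 1000 bp away, and the last 15 were farther than 1000 bp from every start in the table, within 1000 bp of a gene end only because the rule asks for it. Of these 15, 10 lay upstream of the nearest start: they included CNOT10 (3 bp from the gene end), USP2 (10 bp), DNAH5 (71 bp), FBXL5 (77 bp), CFAP61 (103 bp) and MAP2 (113 bp), with starts from 4011 bp (CFAP61) to 155398 bp (MAP2) away. The other 5 lay downstream: TJP1 by 122174 bp, FAM120A by 114965 bp, ITGA10 by 17883 bp, MXRA7 by 16917 bp and CTDSP1 by 6581 bp. By these directions the 10 lay near the 5′ end of the gene and the other 5 near its 3′ end. Whether a start lies at these gene ends was not tested. An end of a long noncoding RNA gene lay within 1000 bp of 153 member summits (24.3%), such as those of OTUD6B and VIRMA, and of 2172 of the 11447 weaker ones. A pseudogene end did so at 9 (1.43%) and 1.32%.

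Promoter composition was read in the 300-base window around the outermost start, 250 bases before to 50 after it. Member windows had a median GC content of 67.0%, against 65.3% for weaker genes, 59.3% for genes with no single-gene summit and 62.7% over all coding genes. Only 2.95% of member windows were under 50% GC, against 17.9% over all. The observed over expected ratio of CpG dinucleotides had medians of 0.878, 0.825 and 0.765 for members, weaker genes and all coding genes. At equal pileup the median GC content was 66.7% for members and 67.0% for weaker genes.

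Of the 17 motifs searched, the CCAAT box had the widest gap between members and weaker genes in percentage points (17.8). As a ratio of shares it was 1.51, and the rarer CRE (1.68), BANP and ZBTB33 core (1.64), AP-1 (0.475), TATA (0.486) and RFX (0.491) motifs lay farther from 1. The RFX ratio rests on 2 of 542 member windows, and their interval (0.1013 to 1.335%) covers the 0.751% of weaker genes. The CCAAT box was found, on either strand, in 52.4% of the 542 member windows (interval 48.2 to 56.6), in 34.6% (33.5 to 35.7) of 7186 weaker windows and in 36.1% of all 15101 windows. By enrichment class the share was 28.7% under 5, 28.7% from 5 to 10, 35.1% from 10 to 14 and 45.2% from 14 to 17. A pair or more of CCAAT boxes stood in 24.5% of member windows and 12.3% of weaker ones. A CCAAT box within the stretch from 120 to 40 bases before the start was present in 33.6% and 19.8%. The share of windows with a CCAAT box was higher in members in all 4 ranges of window GC content. It was 18 of 36 windows against 42.9% under 55% GC, and 60.9% against 38.8% from 55 to 65. From 65 to 75 it was 50.9% against 32.9%, and from 75 it was 37.9% against 22.4%. These ranges were not compared at equal pileup, and the part of GC content was not tested. At equal pileup the gap narrowed to 54.7% (48.7 to 60.5) of 267 member windows and 46.1% (43.1 to 49.1) of 1056 weaker ones, and these intervals overlap.

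**Figure D4:**
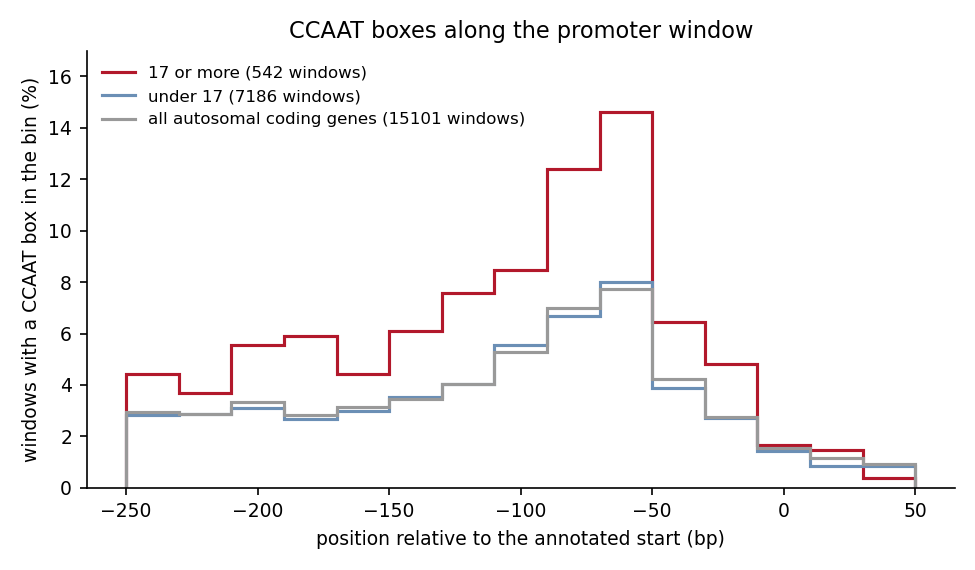
Percentage of promoter windows with a CCAAT box in each 20-base bin, by position relative to the annotated start (bp), for members (red), genes with a weaker summit (blue) and all autosomal coding genes (grey). All curves peak between 70 and 50 bases before the start, at 14.6% of member windows and 7.99% of weaker ones.

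The summit and the CCAAT box lay close together, as in SIL1 and RNF7 above. Where a window held both, the median distance from the summit to the nearest CCAAT box was 32.0 bp in 266 members and 43.0 bp in 1702 weaker genes, and 47.7% (41.8 to 53.7) and 39.5% (37.2 to 41.9) were within 30 bp. ETS sites went the other way: the median distance was 66.5 bp in 104 members and 44.0 bp in 911 weaker genes, and 21.2% (14.4 to 29.96) and 35.2% (32.2 to 38.4) were within 30 bp. For NRF1 half-sites the medians were 79.0 bp in 40 members and 48.0 bp in 327 weaker genes, with intervals that overlap (27.5%, 16.1 to 42.8, against 32.1%, 27.3 to 37.4). GC boxes, the most common element, stood at like distances in both, 34.5 and 33.5 bp, and in members about as near as the CCAAT box. These distances were not compared at equal pileup. Members also held a pair or more of CCAAT boxes more often, and the part of summit position and number of matches was not tested.

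The other promoter elements had smaller gaps in percentage points. The GC box was in 80.1% of member windows (76.5 to 83.2) and 68.0% of weaker ones, and in 80.5% and 80.1% at equal pileup. GC and CCAAT boxes stood together in 43.4% and 23.7%. The ETS site was in 20.3% of members (17.1 to 23.9) and 16.4% of weaker genes, but its share was highest from 14 to 17, at 24.8%. The NRF1 half-site (8.86% against 5.96%) and the CRE (5.17% against 3.08%) were more frequent in members, and the BANP and ZBTB33 core was at 2.95% (1.83 to 4.74) against 1.80% (1.51 to 2.13), intervals that overlap. At equal pileup the gaps were smaller and all intervals overlapped: ETS stood at 21.7% and 20.4%, NRF1 at 8.99% and 7.01%, and CRE at 6.37% and 4.73%. The BANP and ZBTB33 core then went the other way, at 2.62% in members and 3.41% in weaker genes. YY1 sites (AAGATGGCG; 3.87% against 3.48%) and CTCF cores (CCACNAGNG; 3.87% against 4.06%) were at like shares. None of the 7 elements (GC box, CCAAT, ETS, NRF1, YY1, CRE, BANP and ZBTB33) was found in 6.46% of member windows. The share was 15.6% of weaker and 21.5% of all windows.

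The TATA box, AP-1 and TEAD sites had lower shares in member windows than in weaker ones, while the CRE above had a higher one. TATA, AP-1 and TEAD sites were not compared at equal pileup or by window GC content. Windows under 50% GC were 2.95% of members and 8.74% of weaker genes. A TATA box (TATAAA) was in 3.32% of member windows (2.11 to 5.19), 6.83% of weaker ones and 9.83% of all. The AP-1 site (TGANTCA), bound by FOS and JUN, was in 13 of 542 (interval 1.41% to 4.06%), 5.05% and 5.64%, but it stood in 9 of the 189 windows of members at 18 or more (4.76%, 2.53 to 8.80). The TEAD site (GGAATG) was in 8.12% (6.10 to 10.7), 11.0% and 11.8%. The CACCC motif (CCACCC), another KLF element, did not differ beyond its interval, at 36.9% (32.9 to 41.0) and 38.3%. Shares were also alike for the E-box (CACGTG, bound by USF and MYC), at 11.6% and 9.39%, the ZNF143 site (CCCANNATG), at 3.69% and 4.81%, and the heat shock factor site (GAANNTTC), at 4.06% and 4.86%. The E2F site (TTTNNCGC) was in 65 of 542 member windows and 9.63% of weaker ones. Each match is a run of letters in the window and does not show that a factor was bound.

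**Figure D5:**
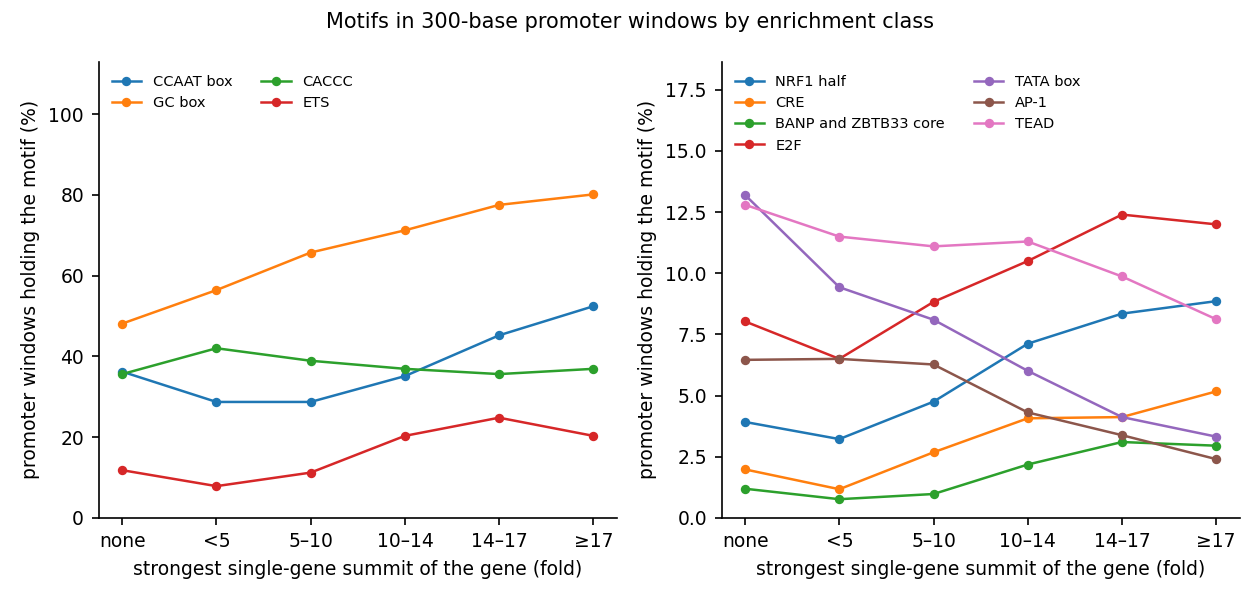
Percentage of promoter windows holding each motif, by the strongest single-gene summit of the gene (fold; none means no such summit), with the common motifs on the left and the rarer ones on the right (both axes linear, from 0). CCAAT and GC boxes are highest in the class at 17 or more, at 52.4% and 80.1%, TATA, AP-1 and TEAD are lowest there, and ETS is highest from 14 to 17.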

How the data were processed

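The submitters' processing notes name fastp 0.20.0, Bowtie2 2.4.3, deepTools 3.5.0, SAMtools, MACS2 2.2.7.1 and the build hg38; their options, any control, and the treatment of duplicates are not given in the sources used here. The authors deposited 1 narrowPeak list for all 12 libraries. It holds the authors' score, a fold ratio (the enrichment over a local background) and −log10 p and q values, as deposited per summit. Whether neighbouring signal entered the background is not stated. A pooled list mixes the 3 collagen groups.

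The pileup and background were solved from the deposited enrichment and −log10 p with enrichment = (pileup + 1)/(background + 1) and a Poisson upper tail; 100% of 12076 pileups were whole within 0.05. That model is recorded in no header or label. Gene ends, starts and promoter windows came from RefSeq GRCh38.p14, with no window on chromosome 8; all 17 motifs were searched on both strands. Scripts ran in Python 3.11.15 with NumPy and pandas, and pileup recovery, gene assignment, motif search and repeat scoring were tested on simulated data.

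No test was made, since each value is single and the enrichment chose the members. Members, lists and motifs were chosen with earlier results of these data known, and the 10 groups in the closing section after their values were seen. Named genes are the 20 of highest enrichment, the first 4 of each list or family with at least 3 members, the 3 highest and 3 lowest pileups, the neighbours of the threshold, and the longest and shortest interval; genes named beyond these were chosen after their values were seen, and a few genes under this rule are not reported here. Near-identical copies, antisense and overlapping genes could not be separated. The alternatives tried were 8 planned and 2 added after seeing the data.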

Additional observations from a re-analysis of the deposited data

How the results depend on the processing

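The choice that moved the number of members was the threshold: 1231 summits at as many genes passed at an enrichment of at least 16, and 214 at 18, against 629 at 17. The other settings left between 465 summits (exactly 1 gene of any type in the window) and 629. The share of summits within 100 bp of a start lay between 49.4% and 52.1%, the median GC content between 66.3% and 67.7%, and the share of promoters with a CCAAT box between 50.9% and 53.1% under all 10 alternatives. Of 160 list shares, 2 left the interval of the main value, both at a threshold of 18, where nuclear pore and matrix genes had 0 members. Of 170 motif shares, 3 did, also at 18: the GC box stood at 87.8%, AP-1 stood at 4.76% and RFX at 0. The AP-1 share at 18 is close to the 5.05% of weaker genes, so the lower AP-1 share did not hold in the 189 windows of those members; the cause was not tested. No paired analysis was possible because the list carries no library values and no test was run. Per-library depth is unknown, so a low pileup cannot be told apart from uneven support among the 12 libraries.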

Other observations

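Some smaller groups of genes, put together after the members had been seen and therefore given as values only, held many members. Enzymes that break down branched-chain amino acids had 8 of 29: MCCC2 (enrichment 19.5), HIBADH (19.5), DBT (18.8), IVD (18.1), HIBCH (17.95), HADH (17.9), PCCB (17.9) and BCKDHB (17.2), from the branched-chain keto acid dehydrogenase (DBT, BCKDHB) to the last steps toward the citric acid cycle (PCCB). Glycoprotein assembly and folding in the ER had 12 of 58, covering dolichol synthesis (DHDDS and NUS1, the 2 subunits of 1 enzyme), the last glucose of the donor glycan (ALG10 and ALG10B), its transfer (STT3A), folding control (UGGT1), disposal (OS9, SEL1L, EDEM1) and export (LMAN1). Telomere genes had 4 of 13 (POT1 18.9, TERF2 17.9, STN1 17.7, TNKS 17.6), proteins with or related to START lipid-transfer domains 5 of 15 (CERT1 18.7, STARD5 18.7, PCTP 18.3, STARD9 18.02, STARD3NL 17.6), and the salt-inducible kinases 3 of 3 (SIK2 18.9, SIK1 17.5, SIK3 17.4). ATP synthase subunits had 5 of 18, decapping factors 2 of 6, sterol synthesis 5 of 30 (INSIG2 first at 18.9) and nucleotide synthesis 8 of 43 (DHODH first at 19.1).

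Genes of motile cilia, the beating kind found on airway and sperm cells, had 10 of 104 members, or 19.6% of the 51 with a single-gene summit. RFX2 (19.2), a transcription factor of ciliary genes, RSPH1 (18.8) of the radial spoke, DNAH5 (18.3), an outer dynein arm heavy chain, SPAG16 (18.1) of the central pair and CFAP61 (17.9) were the highest. The RFX motif itself (GTTGCCATG) was in 2 of 542 member windows (0.369%, interval 0.1013 to 1.335). It was in 0.854% of all windows, which that interval covers. Accessibility says nothing here of expression, which was not measured.

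Pairs of paralogues were both members in several cases: the inositol hexakisphosphate kinases IP6K2 (17.6) and IP6K1 (17.3), the SNARE recycling factors NAPA (17.3) and NAPB (17.2), the zinc transporters SLC30A5 (19.4) and SLC30A6 (17.04), TMEM170B (18.5) and TMEM170A (17.4), RAB8B (18.6) and RAB8A (17.7), and RAB3A (18.05) and RAB3C (17.99). Within a pair the pileups differed widely in some cases, as 4261 for NAPA and 904 for NAPB, while the enrichments were near each other by selection. These pairs were picked after the members were seen. Pairs with a single member or none were not counted, so it is not known whether paralogues were members together more often than other genes.

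In 5 members the window shares at least 80% of its 31-base words with a window elsewhere: SIK1 with LOC102724428 (100%, both members, pileups 815 and 833), ZNG1C with ZNG1F (96.3%) and ZNG1E, LOC102723553 with SMIM11 (90.0%) and U2AF1 with LOC102724594 (88.5%). Pileups at these 5 were 690 to 1072, below the member median of 1747, and reads of such copies cannot be told apart. The tandem repeat at SPATC1L was shared in kind by UBE3C and FGGY (62.1% and 60.9% equal 1 period on), 3 of 542 windows (0.554%) against 0.278% of weaker ones, and the part of either feature in the enrichment was not tested.

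Chromosome 15 held 41 members, 6.65% of its coding genes and 12.4% of those with a single-gene summit, the highest shares of the 22 autosomes; RCN2 (20.4), HERC2 (19.1), ARRDC4 and STARD5 led there. The lowest share was 2.07%, on chromosome 13, where MICU2 was 1 of 7 members. HT1080 copy number was not analysed here, and its part in these shares was not tested.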
